A study of Homo sapiens with 6 samples.

Results

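The BCL2 family regulators examined here are 10 genes: the anti-apoptotic BCL2, BCL2L1 (BCL-XL), BCL2L2 (BCL-W), MCL1 and BCL2A1 (BFL1), the pore-forming effector BAK1, and the BH3-only genes BCL2L11 (BIM), BAD, BIK and BMF. They were chosen by gene symbol, as every probe set that the platform annotation assigns to 1 of these genes alone, which gave 30 of 54613 probe sets. HaCaT cells, a spontaneously immortalised human epidermal keratinocyte line, were kept for 12 h either at ambient pressure (3 arrays) or in a negative-pressure incubator under a negative pressure gradient of 125 mmHg (3 arrays). All 6 cultures were grown in DMEM with fetal bovine serum, streptomycin and penicillin, with no other agent named. They are labelled biological replicates of this 1 line, so p-values measure the spread between cultures of the line, not between people or skin samples. Total RNA was measured on Affymetrix arrays, and a value is the log2 signal that RMA gives a probe set.

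The BCL2 family decides whether the outer mitochondrial membrane stays closed. BAK1 and its relative BAX can form pores that release cytochrome c, the anti-apoptotic members hold them and the BH3-only proteins in check, and BH3-only proteins are induced or activated by stress, loss of growth factor or loss of attachment. In epidermis, BCL-XL and MCL1 are known as survival factors of keratinocytes, while BIM and BMF take part in anoikis, the death of cells that lose their contacts.

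Promoter sequence is shown for the genes of both member probe sets with the smallest p, BCL2A1 and BCL2L11, because these carry the only separations with an unadjusted p under 0.05. The windows are the 250 bases before the annotated RefSeq start, on GRCh38.p14. BCL2A1 lies on the minus strand at chr15:79971197-79971446, and BCL2L11 on the plus strand at chr2:111120664-111120913. Capitals mark matches to 4 motifs searched on both strands: GTAAACA (the element bound by FOXO factors), TGANTCA (AP-1), TATAAA (the TATA box) and the kappaB consensus of NF-kB.
BCL2A1: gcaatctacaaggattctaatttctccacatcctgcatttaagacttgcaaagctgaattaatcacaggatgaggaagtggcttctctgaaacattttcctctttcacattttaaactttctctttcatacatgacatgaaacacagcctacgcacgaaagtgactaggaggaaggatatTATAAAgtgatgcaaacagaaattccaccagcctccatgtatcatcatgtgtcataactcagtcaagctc
BCL2L11: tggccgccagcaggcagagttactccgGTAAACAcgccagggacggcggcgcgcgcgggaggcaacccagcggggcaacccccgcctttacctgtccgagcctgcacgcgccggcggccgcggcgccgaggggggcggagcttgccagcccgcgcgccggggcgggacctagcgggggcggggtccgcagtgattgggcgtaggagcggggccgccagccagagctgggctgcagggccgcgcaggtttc

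The BCL2L11 window held GTAAACA, starting 223 bases before the gene start, and none of the other motifs. The BCL2A1 window held TATAAA, starting 70 bases before the start, and none of the other motifs. In 35116 RefSeq windows of the same length, GTAAACA was found in 2.98%, TGANTCA in 6.57%, TATAAA in 10.7% and the kappaB consensus in 9.96%. RefSeq promoter entries matched 7 of the 10 genes, with 10 windows (BAD, BMF and BCL2L1 have 2 each). GTAAACA occurred in 1 of these (BCL2L11), TATAAA in 2 (BCL2A1 and BCL2L1), the kappaB consensus in 1 (BMF) and TGANTCA in 0. The searched motifs do not overlap each other in either printed window. A match describes letters only.

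Before the members, the arrays: the first principal component, with 40.4% of the variance, set the replicate 3 arrays of both groups apart (39.96 and 46.83) from the other 4 arrays (-24.37 to -14.77). Pressure separated on the second component, with 28.8%. Values without both replicate 3 arrays are given below beside part of the members. Keratinocyte markers were as labelled: all 9 measured of 12 listed lay above the median mean of all probe sets (3.84), from 8.35 for DSG3 to 12.50 for SFN. Their average level per array was 10.17 to 10.24 at ambient pressure, against 10.33 to 10.46 under negative pressure. Of 19 markers of other cell types, 17 were measured and 7 lay above 3.84, with COL1A1 the highest at 6.78. Their average level per array was 3.66 to 3.80 at ambient, against 3.64 to 3.82 under negative pressure. The endothelial cadherin gene CDH5 was the only marker of either list called without the block, with a log2 fold change of -0.80 (204677_at, adjusted p = 0.0492), and that call was lost when any 1 array was left out (adjusted p from 0.0822 to 0.222). With the replicate number as a block, the keratinocyte genes DSG3 (235075_at, adjusted p = 0.0383) and PKP1 (221854_at, 0.0498) and COL1A1 (202310_s_at, 0.0494) also passed, all higher. That COL1A1 probe set is dim, with a mean of 3.63, and the brightest, 217430_x_at, stood at -0.09. The part of the markers in the results was not tested. As bulk RNA was measured, fewer cells of a kind and less RNA per cell cannot be told apart.

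The comparison asked whether BCL2 family transcripts differed after 12 h of negative pressure. None of the 30 member probe sets was called by limma at an adjusted p of 0.05 (0 of 30), where 0.480% of all probe sets were (262 of 54613), so the count lies near the background. At an unadjusted p under 0.05 there were 2 of 30, against 9.86% of all. The member with the smallest p was BCL2A1, 1.87-fold lower, which missed the threshold narrowly and passed it with the replicate number as a block. Its probe set is dim and is not shown to be above background, since the values carry no detection call, so the fold describes this signal only. BCL2L11, on the probe set with the smallest p of its 7, and BMF, on its only probe set, were 1.34-fold higher without passing. The brightest BCL2L11 probe set was 1.21-fold higher. No probe set of MCL1, BCL2, BCL2L1, BCL2L2, BAK1, BAD or BIK passed.

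By role, 0 of 17 anti-apoptotic, 0 of 1 effector and 0 of 12 BH3-only probe sets passed. Taking the brightest probe set of each gene, the median log2 fold change was -0.01 over the 5 anti-apoptotic genes, 0.13 for BAK1 and 0.16 over the 4 BH3-only genes, against 0.01 over all 19775 genes. The difference between roles was not tested. For 27 of the 30 probe sets the 95% interval of the log2 fold change stayed within 1 in either direction. The exceptions were BCL2A1, BCL2L11 208536_s_at and MCL1 214056_at, so for most members a doubling or halving lies outside the interval.

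**Figure D1:**
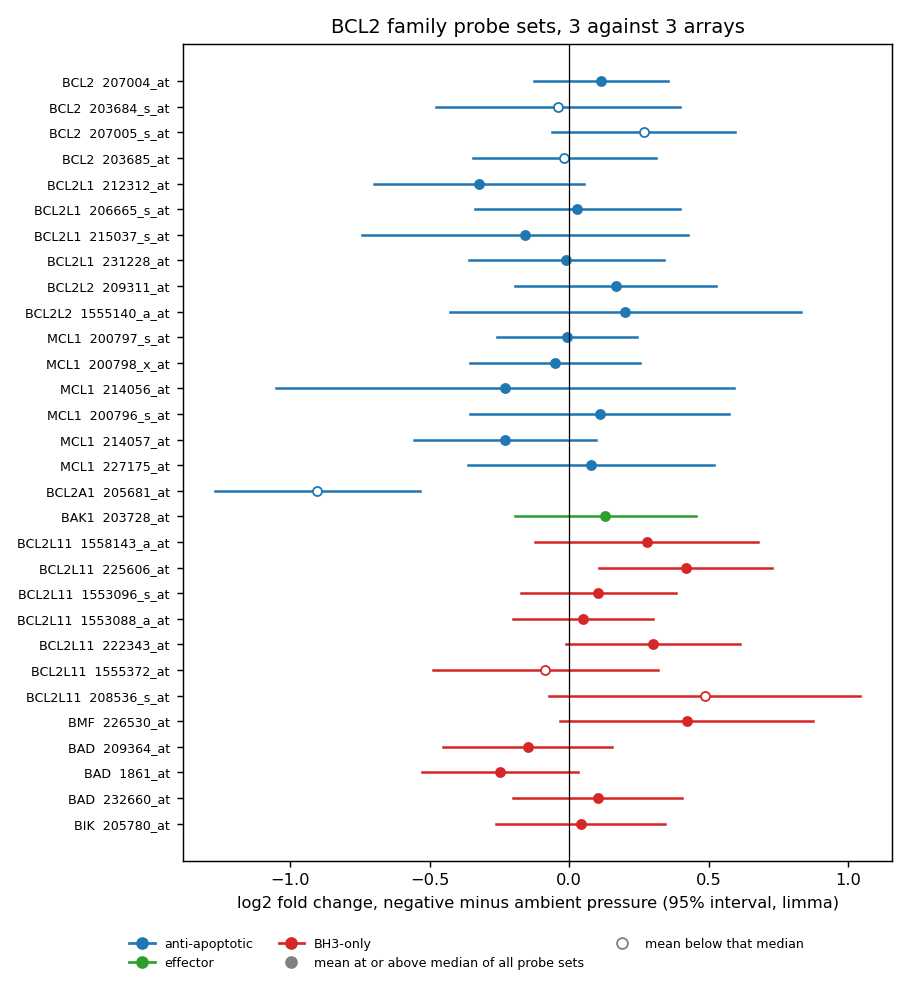
Log2 fold change (negative minus ambient pressure, x axis) with its 95% interval from limma for each of the 30 member probe sets, coloured by role, with open symbols where the mean lies below 3.84. BCL2A1 stands at -0.90, and all other probe sets lie between -0.32 and 0.48.

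Among the anti-apoptotic genes, BCL2A1 encodes a short-lived guardian of mitochondria that is known as an NF-kB target. Its only probe set, 205681_at, read 3.62, 3.52 and 3.15 at ambient pressure (replicates 1 to 3), against 2.77, 2.42 and 2.39 under negative pressure. Every negative pressure array was below every ambient array, with a gap between the groups of the same order as the range within each. The means were 3.43 ± 0.25 and 2.53 ± 0.21 (SD, n = 3 each). The log2 fold change was -0.90 ± 0.16 (SE; 95% interval -1.27 to -0.54; limma adjusted p = 0.0585, unadjusted 0.00034). With the replicate number as a block the adjusted p was 0.00806, where 2.27% of all probe sets passed.

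Whether BCL2A1 was called depended on the fit and on the other features tested. With 1 probe set per gene, the adjusted p was 0.0396, and 0.920% of 19775 genes passed, and with the mean of the probe sets of a gene it was 0.0350, where 0.936% passed. Leaving out both replicate 3 arrays gave a log2 fold change of -0.98 (adjusted p = 0.0317), where 1.10% of all probe sets passed. With array weights it was -0.95 (adjusted p = 0.00536), where 2.78% passed, and at a threshold of 0.10 BCL2A1 passed with 1.14% of all. When 1 array was left out, the value lay between -1.04 and -0.81 with adjusted p from 0.0570 to 0.269. The probe set is dim, with a mean of 2.98, below the median of 3.84, and no second probe set of the gene was available to set beside it.

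MCL1, a labile guardian that binds BAK1 and BIM, was read by 6 probe sets, and none passed the test (adjusted p from 0.708 to 0.993). The brightest, 200797_s_at, read 9.89, 9.90 and 9.74 at ambient pressure, against 9.85, 9.86 and 9.79 under negative pressure. These arrays overlapped almost completely, and the log2 fold change was -0.01 ± 0.11 (SE; 95% interval -0.26 to 0.24). The next, 200798_x_at, stood at -0.05 ± 0.14, with 9.52, 9.58 and 9.52 against 9.65, 9.58 and 9.24. The 4 dimmer MCL1 probe sets stood between -0.23 and 0.11, and 227175_at moved from 0.08 to -0.23 without both replicate 3 arrays.

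Part of the MCL1 signal went with the replicate number. Probe set 214056_at read 6.22, 6.37 and 5.36 at ambient, against 6.03, 6.30 and 4.93 under negative pressure, so both replicate 3 arrays lay below the other 4, by 1.08 on average on the log2 scale. Within each number the negative pressure array was the lower one, and the log2 fold change was -0.23 with a 95% interval of -1.05 to 0.59 (adjusted p = 0.927, with the block 0.426). Probe set 200796_s_at went the other way, at 5.26, 5.62 and 6.07 at ambient, against 5.57, 5.70 and 6.01 under negative pressure, with replicate 3 higher by 0.50 on average. Probe sets of 1 gene thus moved in opposite directions in the same arrays. Their positions along the transcript were not used here, and the cause was not tested.

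**Figure D2:**
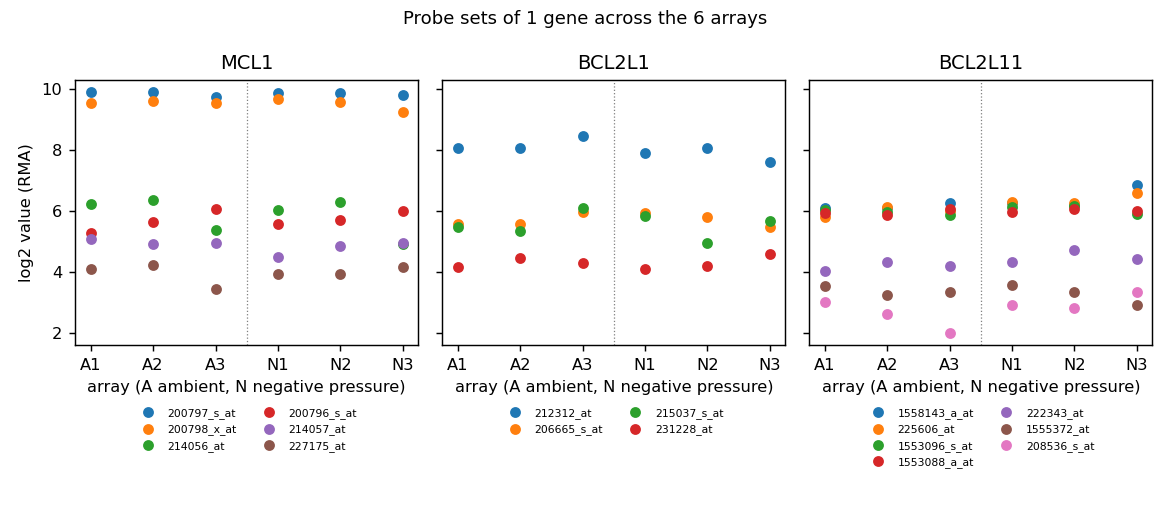
Log2 values (y axis) of every probe set of MCL1, BCL2L1 and BCL2L11 on each array (x axis, A ambient and N negative pressure, numbers are replicates), 1 colour per probe set. MCL1 214056_at is lowest on both replicate 3 arrays (5.36 and 4.93), while the brightest MCL1 probe sets stay between 9.24 and 9.90.

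BCL2L1 encodes BCL-XL and, by alternative splicing, the shorter pro-apoptotic BCL-XS. Its brightest probe set, 212312_at, read 8.04, 8.04 and 8.45 at ambient pressure, against 7.90, 8.07 and 7.59 under negative pressure. The groups overlapped, and the spread came mainly from the replicate 3 arrays, which lay at opposite ends. The log2 fold change was -0.32 ± 0.17 (SE; adjusted p = 0.606), and -0.05 without both replicate 3 arrays. The other 3 BCL2L1 probe sets stood between -0.16 and 0.03. The lowest, 215037_s_at, stood at -0.03 without both replicate 3 arrays, and 206665_s_at moved from 0.03 to 0.29 without both replicate 3 arrays, with no call in either.

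BCL2, the founding member, was read by 4 probe sets, of which 1 had a mean above 3.84. That one, 207004_at, read 4.67, 4.72 and 4.72 at ambient pressure, against 4.82, 4.77 and 4.87 under negative pressure. The groups did not overlap, but the difference was only 0.11 ± 0.11 (SE; adjusted p = 0.853), less than limma's error allows to call. The dim 207005_s_at read 3.20, 2.73 and 3.16 against 3.24, 3.31 and 3.33, a log2 fold change of 0.27 ± 0.14 (adjusted p = 0.637). Here the ambient replicate 2 array was the low one, and the other 5 lay close together. The remaining BCL2 probe sets stood at -0.04 and -0.02.

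BCL2L2 encodes BCL-W. Its brighter probe set, 209311_at, read 7.01, 7.09 and 7.10 at ambient, against 7.45, 7.38 and 6.88 under negative pressure, with replicates 1 and 2 above and replicate 3 below every ambient array. The log2 fold change was 0.17 ± 0.16 (SE; adjusted p = 0.857), and without both replicate 3 arrays it was 0.36 (adjusted p = 0.193). The dimmer 1555140_a_at stood at 0.20 ± 0.28, and 1 more probe set names BCL2L2 together with other genes and was left out.

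BAK1 encodes the effector that sits in the outer mitochondrial membrane. Its probe set 203728_at read 7.13, 7.09 and 7.46 at ambient pressure, against 7.24, 7.29 and 7.54 under negative pressure. Within each replicate number the negative pressure array was the higher one, yet the groups overlapped because both replicate 3 arrays lay above the other 4. The log2 fold change was 0.13 ± 0.14 (SE; adjusted p = 0.882, with the replicate block 0.674).

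Among the BH3-only genes, BCL2L11 encodes BIM, a strong activator of BAX and BAK1 that is a known FOXO target. It had 7 probe sets, 6 of them above 0 and none past the threshold. The one with the smallest p, 225606_at, read 5.81, 6.11 and 5.99 at ambient pressure, against 6.30, 6.27 and 6.59 under negative pressure. The groups did not overlap, and the log2 fold change was 0.42 ± 0.14 (SE; 95% interval 0.11 to 0.73; adjusted p = 0.307, with the block 0.132). Without both replicate 3 arrays it was 0.32, and between 0.31 and 0.49 when 1 array was left out.

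A second BCL2L11 probe set, 222343_at, was also separated, narrowly: 4.05, 4.32 and 4.20 at ambient against 4.33, 4.70 and 4.43 under negative pressure (0.30 ± 0.14, SE; adjusted p = 0.535). The brightest, 1558143_a_at, read 6.11, 6.11 and 6.26 against 6.27, 6.19 and 6.85, a difference of 0.28 ± 0.18. Leaving out negative pressure replicate 3 gave 0.07, and leaving out both arrays of that number gave 0.12. Probe sets 1553096_s_at and 1553088_a_at, of similar brightness (means of 6.01 and 5.98), stood at 0.10 and 0.05. The dim 208536_s_at stood at 0.48 ± 0.25, and at 0.05 without both replicate 3 arrays, and the dim 1555372_at at -0.09 with them and 0.09 without. The BCL2L11 probe sets therefore did not give 1 common size of difference.

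**Figure D3:**
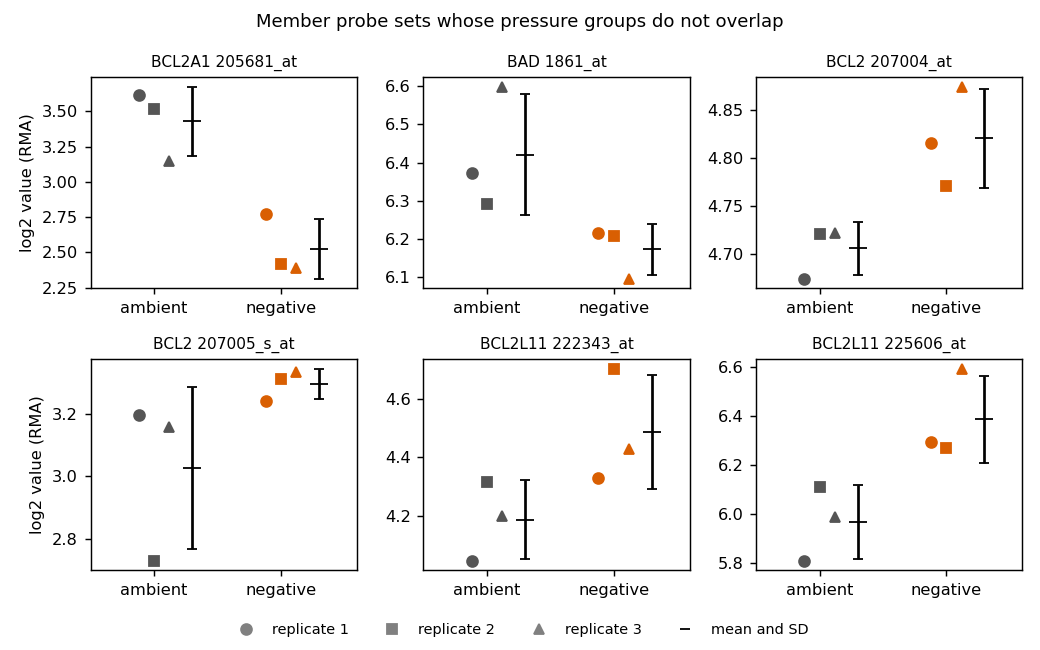
Log2 values (y axis, a separate scale per panel) of the 6 member probe sets whose ambient and negative pressure arrays do not overlap, with the mean and SD of each group. BCL2A1 shows the widest gap, from 3.15 down to 2.77, and BCL2 207004_at a far smaller one, from 4.72 up to 4.77.

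BMF encodes a BH3-only protein that is tethered to the cytoskeleton through dynein light chain. Its single probe set, 226530_at, read 4.92, 4.76 and 5.33 at ambient pressure, against 5.08, 5.44 and 5.75 under negative pressure. Each negative pressure array exceeded the ambient array of the same number, but ambient replicate 3 lay above negative pressure replicate 1. The log2 fold change was 0.42 ± 0.20 (SE; 95% interval -0.03 to 0.87; adjusted p = 0.557, with the block 0.142). It was 0.42 without both replicate 3 arrays, and between 0.26 and 0.59 when 1 array was left out, the lowest without negative pressure replicate 3.

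BAD encodes a sensor of growth factor signalling that is held inactive by 14-3-3 proteins once phosphorylated. Its probe set 1861_at read 6.37, 6.29 and 6.60 at ambient, against 6.22, 6.21 and 6.10 under negative pressure. The groups did not overlap, with a log2 fold change of -0.25 ± 0.12 (SE; adjusted p = 0.583), which was -0.12 without both replicate 3 arrays. The brightest BAD probe set, 209364_at, stood at -0.15 ± 0.13, and 232660_at at 0.10 ± 0.13, and neither passed. Without both replicate 3 arrays 209364_at stood at -0.26 and 232660_at at -0.02, and without negative pressure replicate 2 209364_at stood at -0.03. BIK, a BH3-only protein of the endoplasmic reticulum, was bright and level: 205780_at read 9.28, 9.44 and 9.58 against 9.30, 9.62 and 9.51 (0.04 ± 0.13, adjusted p = 0.966).

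In all, 6 of the 30 member probe sets had groups that did not overlap, 4 higher and 2 lower under negative pressure. Among all probe sets 15.0% did not overlap, 8.44% higher and 6.56% lower. The 4 higher ones were those of BCL2 and BCL2L11 described above, and the 2 lower ones were those of BCL2A1 and BAD. Both replicate 3 arrays lay outside the other 4, on the same side, in 6 of the 30 (3 above and 3 below), against 30.1% of all probe sets.

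The wider pathway was read from 8 lists with 58 genes, of which 53 were measured by 152 probe sets. In limma 1 of these passed, lower, where 0.480% of all probe sets passed. At an unadjusted p under 0.05 in limma there were 19 of 152, against 9.86% of all. With the replicate block 1 was higher and 6 were lower, where 2.27% of all passed. The 1 that passed without the block was JUN, the AP-1 subunit and an activator of BH3-only genes under stress. Its probe set 201466_s_at read 7.82, 7.68 and 7.55 at ambient, against 6.55, 6.95 and 6.15 under negative pressure. JUN fell by 1.13 on this probe set (SE 0.19; adjusted p = 0.0492), and the groups did not overlap. Its other 3 probe sets stood at -0.71, -0.86 and -0.49 without passing. With the block 201464_x_at and 201465_s_at passed too (adjusted p = 0.0323 and 0.0347). Without the block, the call of 201466_s_at was lost when any 1 array was left out (adjusted p from 0.0553 to 0.222).

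Of the transcription factor list, 6 of 7 genes were measured by 17 probe sets, with 1 call, that of JUN, and a median over genes of 0.10. An unadjusted p under 0.05 in limma was found for 6 of the 17, JUN probe sets included, against 9.86% of all probe sets. DDIT3 (CHOP), a factor of the integrated stress response known to induce BIM, was singled out, like FOXO1 and FOXO3 below, outside the naming rule and after its values were seen. Its probe set read 7.01, 7.10 and 7.09 against 7.55, 7.50 and 7.91, a log2 fold change of 0.58 ± 0.14 (SE; adjusted p = 0.133, with the block 0.0437). FOXO1 and FOXO3 probe sets with means above 3.84 stood between 0.02 and 0.31, and the dim FOXO1 228484_s_at at -0.18. E2F1 and TP73, the other measured genes of the list, stood at -0.17 and 0.07 on their brightest probe sets. None of these passed without the block, and with it only DDIT3 did.

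Among 31 probe sets of the other BCL2 family genes (10 of 11 measured) none passed, and 4 had an unadjusted p under 0.05 in limma. The median over genes was 0.07. BID, which caspase-8 cleaves to link death receptors to mitochondria, read 8.48, 8.40 and 8.30 at ambient, against 8.86, 8.88 and 8.84 under negative pressure on 204493_at, 0.47 ± 0.11 (SE; adjusted p = 0.135, with the block 0.0655). The brightest BID probe set stood at 0.11. HRK, a BH3-only gene best known from neurons, stood at 0.46 ± 0.16 on the dim 229552_at (adjusted p = 0.360).

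For the 5 BNIP and beclin genes (12 probe sets, none past the threshold, 1 with an unadjusted p under 0.05 in limma) the median was -0.04. The mitophagy receptor genes BNIP3L and BNIP3 stood at 0.33 (221479_s_at, adjusted p = 0.438) and -0.30 (201849_at, adjusted p = 0.560). The brightest BNIP3L probe set, 221478_at, stood at -0.01, and the dimmer BNIP3 201848_s_at at -0.05. Of the 9 genes for mitochondrial channels and released factors (17 probe sets, none past the threshold, 1 unadjusted), the median was 0.04. Cytochrome c, CYCS, was level on its bright probe set 208905_at (-0.01) and stood at -0.70 ± 0.19 on the dimmer 229415_at (adjusted p = 0.186, with the block 0.0217). AIFM1, a flavoprotein of the mitochondrial intermembrane space, stood at 0.27 (adjusted p = 0.515).

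Of the apoptosome, caspase and nuclease genes 6 of 8 were measured by 19 probe sets, none past the threshold and 1 unadjusted in limma, with a median of 0.13. DFFA, the inhibitor and chaperone of the apoptotic DNase, read 6.43, 6.53 and 6.29 against 5.89, 5.76 and 5.83 on 223518_at, -0.59 ± 0.12 (SE; adjusted p = 0.0792, with the block 0.0370). Its brightest probe set stood at 0.20, so the probe sets of DFFA differed in sign. CASP2, an initiator caspase, stood at -0.24 on its dim 34449_at (adjusted p = 0.556) and at 0.19 on its brightest, 226032_at, so its probe sets also differed in sign. Of the inhibitors of apoptosis 3 of 4 genes were measured by 12 probe sets, none past the threshold and 3 unadjusted, with a median of -0.01. BIRC5 (survivin) stood at -0.46 on its brightest, 202095_s_at, and at 0.34 on 202094_at (adjusted p = 0.227 and 0.333). Its remaining probe sets were both lower, 1555826_at at -0.36 and 210334_x_at at -0.14 (adjusted p = 0.472 and 0.889). XIAP stood at -0.30 on the dim 206536_s_at (adjusted p = 0.561) and at 0.02 on its brightest, 228363_at.

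Of the 5 genes for MCL1 turnover (20 probe sets, none past the threshold, 1 unadjusted in limma) the median was 0.04. The ubiquitin ligase gene MARCHF5 read 6.53, 6.06 and 5.65 against 5.17, 5.45 and 4.71 on 226394_at, -0.97 ± 0.24 (SE; adjusted p = 0.164, with the block 0.0144). Its brighter 218582_at stood at 0.12. HUWE1, another ligase for MCL1, stood at 0.28 on the dim 236294_at (adjusted p = 0.658) and at 0.04 on its brightest, 207783_x_at. Of the 9 anchors of BH3-only proteins (24 probe sets, none past the threshold, 2 unadjusted) the median was -0.10. DYNLL2, the dynein light chain that binds BMF, stood at 0.49 on 238467_at (adjusted p = 0.286) and -0.12 on its brightest, and the 14-3-3 gene YWHAE at 0.28 on 210996_s_at (adjusted p = 0.437). SFN is in this list and among the keratinocyte markers.

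**Figure D4:**
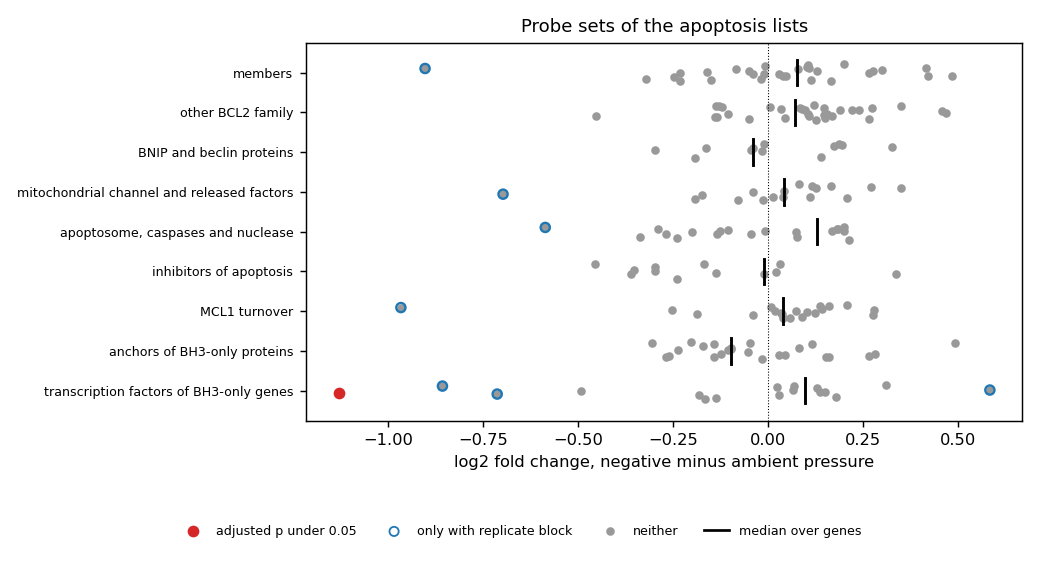
Log2 fold change (negative minus ambient pressure, x axis) of every probe set of the members and the 8 pathway lists, with the median over genes as a black bar; red marks an adjusted p under 0.05 in limma and blue rings those that pass only with the replicate block. JUN at -1.13 is the only red point, and BCL2A1 at -0.90 the only ringed member.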

How the data were processed

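Gene expression of 6 HaCaT cultures was measured on Affymetrix arrays, 3 per pressure, with groups and replicate numbers taken from the sample titles. The values are deposited as log2 signals, and the submitters' processing notes name RMA and Affymetrix Expression Console 1.2. RMA corrects background, makes array distributions equal and condenses the probes of a set. A shift of all transcripts alike would therefore not show. No scan date or genome build was used here. Array medians lay between 3.81 and 3.89, and the number of arrays limits the precision.

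All 54613 probe sets other than 62 controls entered the moderated linear model of limma 3.58.1 (R 4.3.3), unfiltered, two-sided, with Benjamini-Hochberg adjustment over all of them and a threshold of 0.05. Every adjusted p comes from this fit unless another is named, and the fit was tested on simulated data. The annotation gave 41091 probe sets 1 symbol (41037 matched RefSeq by gene identifier), 1801 several and 11721 none. The members, gene lists and alternatives were chosen with earlier results of these data known. From each pathway list the genes past the threshold were named, or otherwise the 2 with the smallest p.

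Replicate numbers are shared by the groups. Deviations from the group means correlated at 0.22, 0.23 and 0.47 for numbers 1, 2 and 3, each above 0.1. The main model did not treat the replicates as paired, and the replicate block is an alternative that does. Number 1 at ambient pressure was nearer to number 2 under negative pressure (0.36). Number 2 at ambient and number 1 under negative pressure also lay above 0.1 (0.15). The check therefore does not show that numbers 1 and 2 are matched between the groups, and values with the block rest on that pairing. Results are from the unblocked model unless the block is named. Alternatives were the replicate block, other normalizations, a filter on dim probe sets, 1 value per gene, other variance models, array weights, a threshold of 0.10, and leaving out arrays.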

Additional observations from a re-analysis of the deposited data

How the results depend on the processing

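With the replicate block 1242 of all probe sets passed in place of 262 (629 higher, 613 lower), with array weights 1516, without both replicate 3 arrays 600, at a threshold of 0.10 625, and between 1 and 235 when 1 array was left out. Dropping ambient replicates 1, 2 and 3 left 6, 1 and 98, and dropping those under negative pressure left 8, 1 and 235. Of the members, 1, BCL2A1, passed with the replicate block, with 1 probe set per gene, with the mean of the probe sets of a gene, with array weights, without both replicate 3 arrays and at 0.10. The other settings gave 0, leaving out 1 array included (0 each), and the filter on dim probe sets removed BCL2A1 itself. The block changed no other member call. Of the 30 member probe sets, 16 kept their sign in every alternative and 14 did not, none of the latter with a call. The JUN call was also lost with median centring (adjusted p = 0.0651) and with trend and robust (0.0536). The CDH5 call was lost with median centring (adjusted p = 0.0625), with trend and robust (0.0563) and without both replicate 3 arrays (0.0677). The low signal of BCL2A1, the 3 arrays per group and the separate replicate 3 arrays limit these values.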

Other observations

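The pattern of BCL2A1 over the 6 arrays was compared by Pearson's correlation with 23444 probe sets of other genes with a mean above the median. The most alike were those of ARSK (1569133_x_at, r = 0.998), MIPEP (36830_at, r = 0.995) and ARPP19 (221483_s_at, r = 0.992). The 6 arrays share their pressure groups, so such values describe a common pattern over few points, and 29 probe sets had an r above 0.98. ARSK stood at -0.81 (adjusted p = 0.0743), MIPEP at -0.29 (adjusted p = 0.440) and ARPP19 at -0.44 (adjusted p = 0.229).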
